A study of Mus musculus with 8 samples.

Results

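The 7 genes described here encode the enzymes that write, keep and remove cytosine methylation in mouse DNA: the DNA methyltransferases Dnmt1, Dnmt3a and Dnmt3b, the DNMT1 recruiter Uhrf1, and the methylcytosine dioxygenases Tet1, Tet2 and Tet3. They were chosen by name, as the rows whose gene symbol equals one of these names, and each of the 7 had 1 row among the 24054 gene rows of the table. PolyA-selected RNA was sequenced from 2 stable lines made from WEHI-231, mouse lymphoma cells of immature B type that arrest and die once their B cell receptor is crosslinked. The 4 groups, of 2 libraries each, were WEHI-miR-148a cells given anti-IgM at 2 ug/ml for 14 h, WEHI-miR-148a cells left unstimulated, WEHI-control cells given the same anti-IgM, and WEHI-control cells left unstimulated. Anti-IgM is an antibody that crosslinks the B cell receptor. The line called miR-148a is named for a microRNA, a short RNA that pairs with messenger RNAs and lowers their level or translation. Vector, promoter and clonality are not stated for either line, so each line contrast compares 1 stable line with 1 other. Nothing in the labels says that the 2 libraries of a group came from separate cultures, so the p-values measure a spread that may be technical.

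DNMT1 copies methylation onto the newly made strand after DNA replication, and UHRF1 brings it there by binding hemimethylated DNA. DNMT3A and DNMT3B place methyl groups on unmethylated cytosines. TET1, TET2 and TET3 oxidise methylcytosine, which leads to its loss through replication or base excision repair. In B cells these enzymes are known for remodelling methylation during activation and differentiation, and TET2 and DNMT3A are known tumour suppressors of blood cells. Dnmt1 and Dnmt3b are reported targets of miR-148a, and in human cells the DNMT3B site was reported in the coding sequence.

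The sequences that bear on the miR-148a line are the microRNA, its family and the matching sites in the members' transcripts. Mature miR-148a-3p lies at chr6:51269829-51269850 on the minus strand of GRCm38.p6. It shares bases 2 to 8, the seed, with miR-148b-3p and miR-152-3p. RefSeq gives the 3 mature sequences, printed 5′ to 3′ with the seed in capitals.
mmu-miR-148a-3p: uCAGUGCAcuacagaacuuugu
mmu-miR-148b-3p: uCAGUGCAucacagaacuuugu
mmu-miR-152-3p: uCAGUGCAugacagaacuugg
The DNA letters that pair with the whole seed are TGCACTG. An 8mer site adds an A after them and a 7mer-m8 site does not. One GENCODE vM21 transcript per gene (GRCm38) was searched on its sense strand. The 3′ UTR 8mers of Dnmt1 and Uhrf1, the coding 8mers of Dnmt3a and Dnmt3b, and the coding 7mer-m8 of Tet3 were found, and are printed with the site in capitals.
Dnmt1, 3′ UTR: cccagagccccacgTGCACTGAtgttttta
Uhrf1, 3′ UTR: tggttttcagagagTGCACTGActgggtgt
Dnmt3a, coding: aggacatcctgtggTGCACTGAaatggaaa
Dnmt3b, coding: acgacgttttgtggTGCACTGAgctcgaaa
Tet3, coding: acctctacaatgggTGCACTGtggtctgc

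The Dnmt1 site, at chr9:20907491-20907498 on the minus strand, starts at base 23 of a 3′ UTR of 312 bases and lies in 3 of 4 coding transcripts. Of the 2023 3′ UTRs of similar length (4/5 to 5/4 of its own), 3.11% held a 7mer-m8 or 8mer. The Uhrf1 site, at chr17:56323115-56323122 on the plus strand, starts at base 613 of 984 and lies in 4 of 4 coding transcripts, and 10.6% of 3′ UTRs of similar length held such a site. Both members of the maintenance pair thus carry the same 8mer in the 3′ UTR. The Dnmt3a site, at chr12:3906867-3906874 on the plus strand, and the Dnmt3b site, at chr2:153684461-153684468 on the plus strand, each begin 159 bases before the end of the coding sequence. Their 2 printed windows share 23 of 30 bases, and the sites lie in 4 of 4 Dnmt3a and 6 of 10 Dnmt3b coding transcripts. Coding sequences of similar length held a 7mer-m8 or 8mer in 23.6% of genes for Dnmt3a and 22.4% for Dnmt3b. The Tet3 site, at chr6:83373196-83373202 on the minus strand, is of a kind found in 38.4% of coding sequences of similar length. The 3′ UTR of Tet3 and both regions of Tet1 and Tet2 held no 7mer-m8 or 8mer. Over all genes, 11.5% of 20911 3′ UTRs held one. A match is a description of letters and not evidence of binding. In GRCm38 the genes span chr9:20907209-20959888 (Dnmt1), chr17:56303321-56323486 (Uhrf1), chr12:3806007-3914443 (Dnmt3a), chr2:153649450-153687730 (Dnmt3b), chr10:62804570-62908996 (Tet1), chr3:133463679-133545139 (Tet2) and chr6:83362373-83459084 (Tet3).

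**Figure D1:**
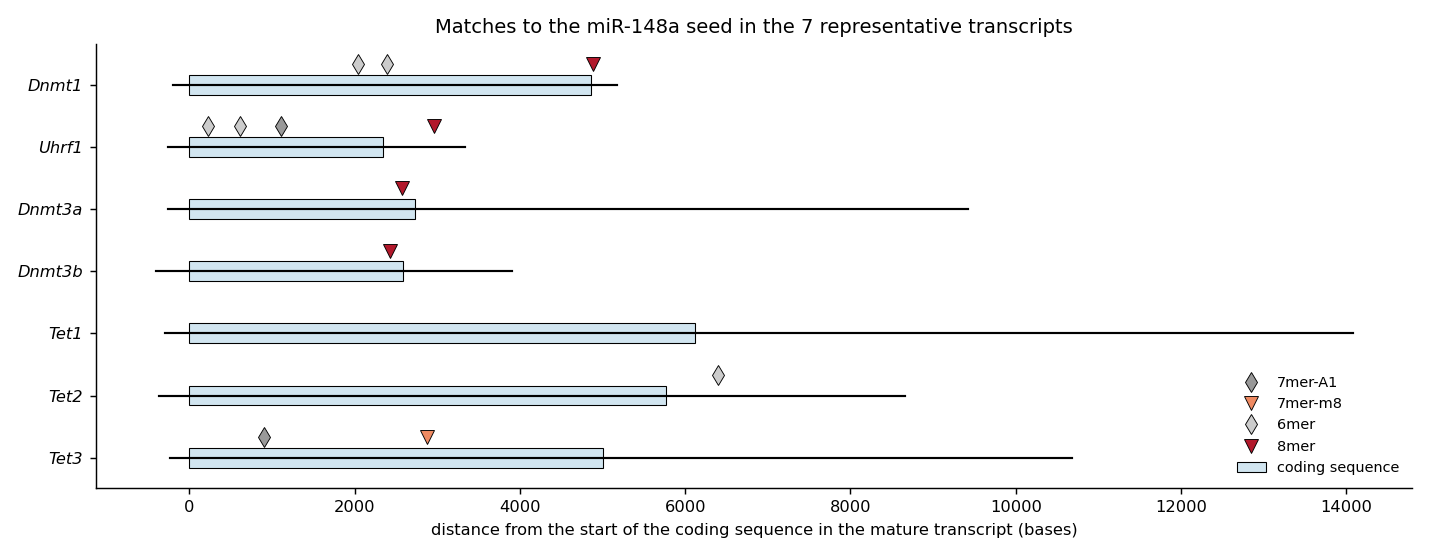
Positions of the miR-148 family seed matches along 1 transcript of each member, in bases from the start of the coding sequence, with the coding part as a box and the untranslated parts as lines, to scale. Triangles are 8mer and 7mer-m8 sites, which pair with the whole seed, and diamonds are sites that pair with part of it. Dnmt1 and Uhrf1 have an 8mer in the 3′ UTR, Dnmt3a and Dnmt3b have one near the end of the coding sequence, and Tet1 has no match.

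Library totals ran from 5810227 to 18660373 counts, the 2 smallest being replicate 1 of both anti-IgM groups. The B cell identity of the lines showed in 8 B cell marker genes, which summed to between 2278 and 3253 CPM (counts scaled to a common library size). T cell, fibroblast and erythroid markers each summed to 1.0045 CPM or less, with Thy1 at 0. Monocyte and macrophage markers summed to 11.8 to 14.8 CPM in miR-148a cells with anti-IgM, 2.54 to 3.14 CPM in unstimulated miR-148a cells, 7.03 to 10.3 CPM in control cells with anti-IgM, and 2.88 to 3.88 CPM in unstimulated control cells. Lyz2, S100a8 and S100a9 were at 0 in all 8 libraries, and Itgam supplied up to 8.86 CPM. These markers moved with anti-IgM, and their part in the results below was not tested. A mature microRNA escapes polyA selection. Mir148a had 1 count in 1 unstimulated miR-148a library and 0 in the other 7, which is under the 3 counts taken as the detection floor.

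All 7 members passed the filter on low counts. Per kilobase of transcript, Uhrf1 had a median of 137.9 CPM over the 8 libraries (126.9 to 149.8) and Dnmt1 122 CPM (93.2 to 145), so these 2 ranges overlap. They lay apart with the length of all annotated exons, 106.9 to 126.2 for Uhrf1 and 67.8 to 105.5 for Dnmt1. Dnmt3a at 16.4 and Tet2 at 14.7 CPM per kilobase formed the next pair, with overlapping ranges of 13.1 to 22.6 and 10.1 to 19.9. Tet3 had a median of 7.89 CPM per kilobase (4.50 to 14.4) and Dnmt3b 6.45 (4.89 to 8.33). The order of Tet3 and Dnmt3b turned round with the length of all annotated exons in place of 1 transcript, 5.16 against 5.45 CPM per kilobase. Tet1 was lowest, at 0.172 CPM per kilobase (0.0771 to 0.251), and its 10 to 50 counts per library make it the least precisely measured member. The maintenance pair was thus the most abundant on a per-length scale and Tet1 the rarest.

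**Figure D2:**
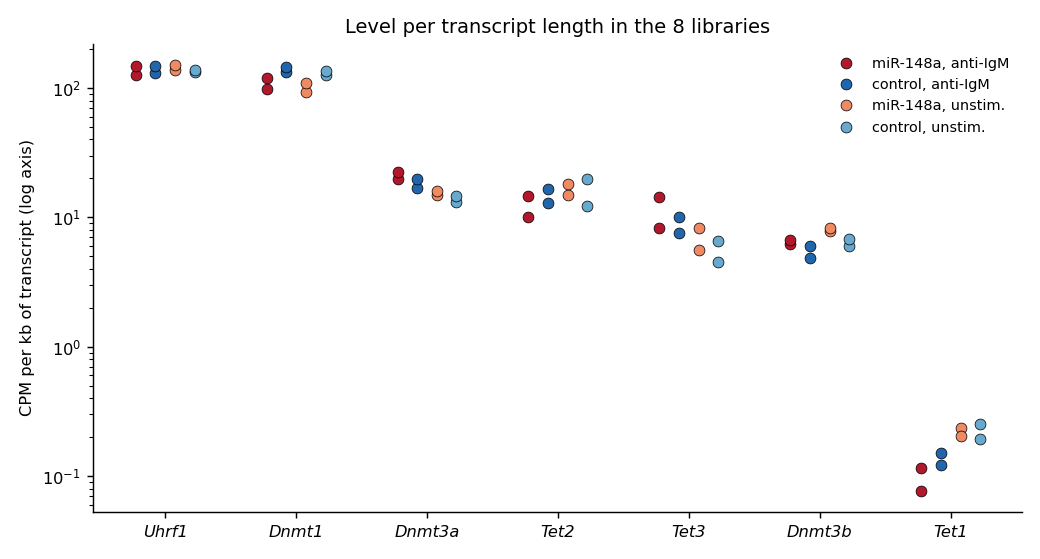
Level of each member in CPM per kilobase of transcript on a log axis, 1 point per library, coloured by group. Uhrf1 and Dnmt1 overlap at the top, Dnmt3a and Tet2 overlap below them, and Tet1 lies under 0.3 CPM per kilobase in all 8 libraries.

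**Figure D3:**
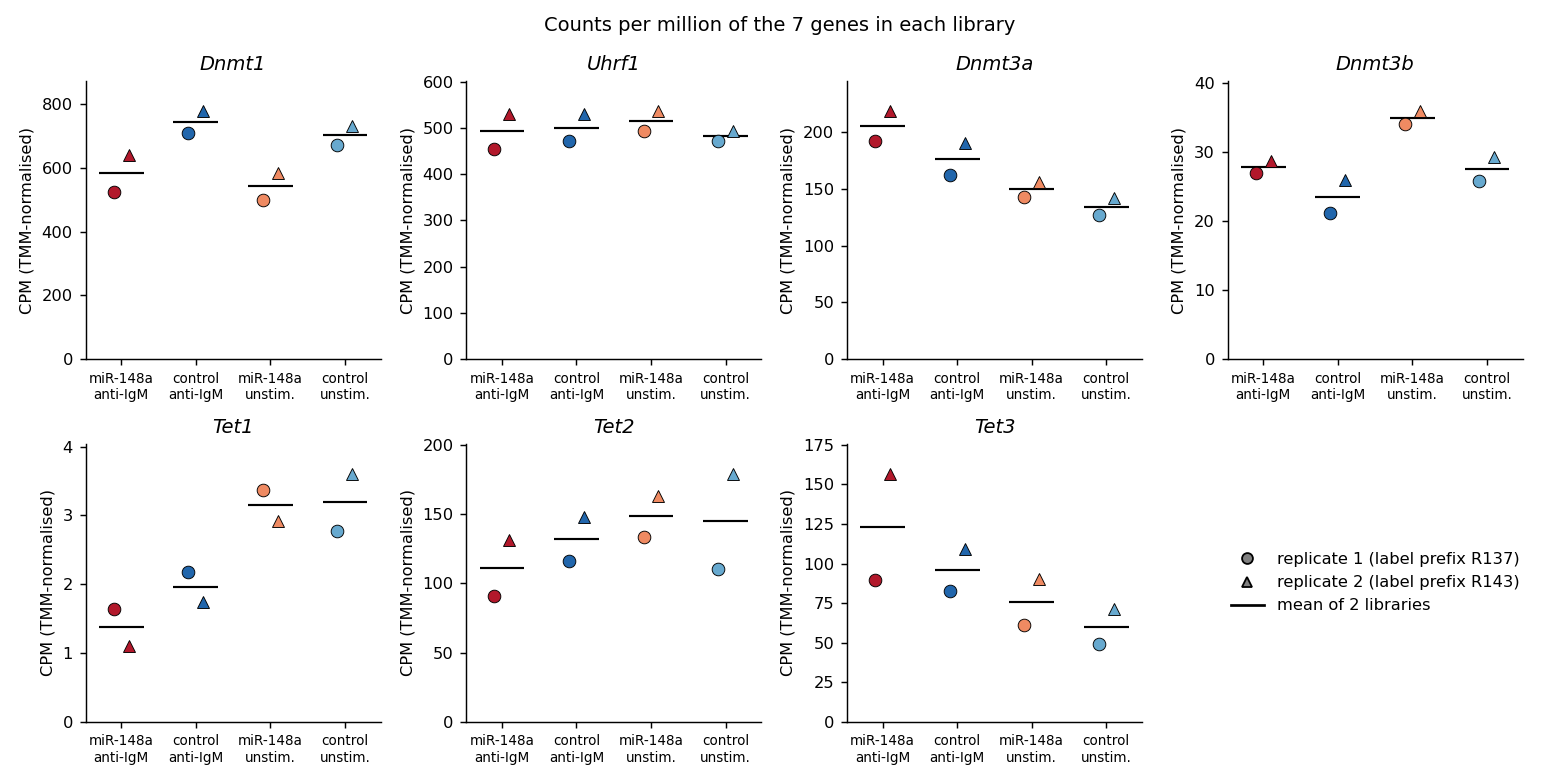
CPM of each member in each of the 8 libraries, with a linear axis from 0 and the groups side by side and a line at the mean of the 2 replicates. Dnmt1 is lower in the miR-148a groups, Dnmt3a and Tet3 are higher with anti-IgM, and Uhrf1 has nearly the same height in all 4 groups.

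The first question was whether transcripts of these genes differ between the miR-148a line and the control line. Dnmt1 had 525 and 641 CPM in miR-148a cells with anti-IgM, against 709 and 779 CPM in control cells with anti-IgM. In unstimulated cells it had 500.1 and 583 CPM in the miR-148a line, against 673 and 732 CPM in the control line. All 4 miR-148a libraries lay below all 4 control libraries. Over both conditions miR-148a cells had 22.2% less Dnmt1 RNA (log2 fold change -0.36 ± 0.09 SE, 95% interval -0.56 to -0.165, adjusted p = 0.0448, edgeR quasi-likelihood test with Benjamini-Hochberg adjustment over 11291 genes). It was the only member of 7 called in that comparison, where 6.31% of all genes tested were called and 2.93% were called lower. In bulk libraries fewer cells that express a gene and less RNA per cell cannot be told apart. The difference held its direction in 4 of 4 same-numbered pairs of libraries, as it did in that direction for 18.9% of all genes, and 3.30% of all genes had the 4 miR-148a libraries all below the 4 control libraries.

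The call for Dnmt1 lay close to the threshold. With the replicate number as a block, which takes out what same-numbered libraries share, the adjusted p was 0.000125. Leaving out 1 library at a time kept the log2 fold change between -0.44 and -0.30, but the adjusted p stayed under 0.05 only without replicate 2 of the miR-148a anti-IgM group (0.0337). It was 0.167 and 0.0706 without replicates 1 and 2 of unstimulated miR-148a cells, 0.0759 without replicate 1 of miR-148a cells with anti-IgM, 0.0708 and 0.133 without replicates 1 and 2 of control cells with anti-IgM, and 0.0854 and 0.129 without replicates 1 and 2 of unstimulated control cells. With the block, all 8 such fits called it. Scaling by library totals alone gave 0.0517. The adjusted p was 0.00364 with DESeq2 and 0.0115 in the edgeR fit without a filter on low counts.

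In each condition by itself Dnmt1 was not called. The log2 fold change was -0.35 ± 0.12 with anti-IgM (adjusted p = 0.182, and 0.00357 with the block) and -0.37 ± 0.12 in unstimulated cells (adjusted p = 0.267, and 0.00405 with the block). The sizes of the 2 differences were nearly equal, and the difference between them is the interaction given further on.

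Uhrf1, the partner of DNMT1 and the other member with a 3′ UTR 8mer, had 455 and 531 CPM in miR-148a cells with anti-IgM, against 471 and 529 CPM in control cells with anti-IgM. Unstimulated, it had 495 and 537 CPM in the miR-148a line, against 473 and 494 CPM in the control line. With anti-IgM the 2 lines overlapped, and unstimulated they lay within 1 CPM of overlapping. Its log2 fold change between lines was 0.04 ± 0.08 (95% interval -0.14 to 0.21, adjusted p = 0.831). The interval excludes a difference of the size found for Dnmt1. The part of the shared 8mer in the value of either gene was not tested.

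Dnmt3b, the de novo methyltransferase reported as a miR-148a target, had 27.0 and 28.7 CPM in miR-148a cells with anti-IgM, against 21.1 and 26.0 CPM in control cells with anti-IgM. Unstimulated, it had 34.0 and 36.0 CPM in the miR-148a line, against 25.8 and 29.3 CPM in the control line. Each miR-148a group thus lay above the control group of its condition. The log2 fold change between lines was 0.29 ± 0.09, which was not called (adjusted p = 0.104) without the block and was called with it (0.0142). The sign is opposite to that of Dnmt1.

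Dnmt3a, the other de novo methyltransferase, had 192 and 219 CPM in miR-148a cells with anti-IgM, against 162 and 189.9 CPM in control cells with anti-IgM. Unstimulated, it had 142.9 and 156 CPM in the miR-148a line, against 126 and 142 CPM in the control line. The log2 fold change between lines was 0.19 ± 0.09 (adjusted p = 0.242, and 0.0158 with the block). Like Dnmt3b, it was higher in 4 of 4 same-numbered pairs, as were 2143 of the 11291 genes tested.

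Tet3 had 89.6 and 157 CPM in miR-148a cells with anti-IgM, against 82.5 and 109 CPM in control cells with anti-IgM. Unstimulated, it had 61.3 and 90.1 CPM in the miR-148a line, against 49.0 and 71.1 CPM in the control line. The groups overlapped in both conditions, but the miR-148a library was the higher in 4 of 4 same-numbered pairs. Its log2 fold change between lines was 0.35 ± 0.21 (adjusted p = 0.354, and 0.00255 with the block). Tet2 (-0.10 ± 0.18, adjusted p = 0.782) and Tet1 (-0.27 ± 0.25, adjusted p = 0.590) were not called between lines with or without the block. Their intervals, -0.50 to 0.29 and -0.84 to 0.31, leave room for differences as large as that of Dnmt1.

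With the block, 4 of the 7 members were called between the lines over both conditions, Dnmt1 lower and Dnmt3a, Dnmt3b and Tet3 higher, where 22.3% of all genes were called. With 2 libraries against 2 in a single condition, the lines did not overlap for Dnmt3a and Dnmt3b (higher) and Dnmt1 and Tet1 (lower) with anti-IgM, nor for Dnmt3a, Dnmt3b and Uhrf1 (higher) and Dnmt1 (lower) in unstimulated cells. This was so for 43.8% and 44.3% of all genes. No member was called in either condition alone without the block, where 2.52% of genes were called with anti-IgM and 0.487% in unstimulated cells. With the block the members called were Dnmt1, Dnmt3a and Tet3 with anti-IgM (16.1% of all genes) and Dnmt1, Dnmt3b and Tet3 in unstimulated cells (7.29%). The blocked call of Dnmt3a with anti-IgM (adjusted p = 0.0488) was lost in all 8 blocked fits that left out 1 library (0.0710 to 0.217), while Dnmt1 was called in 8 of these fits and Tet3 in 6. In unstimulated cells 5 of the 8 called Dnmt1, 4 called Dnmt3b and 4 called Tet3. Over both conditions 8 of the 8 called Dnmt1 and Tet3, 6 called Dnmt3b and 4 called Dnmt3a.

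**Figure D4:**
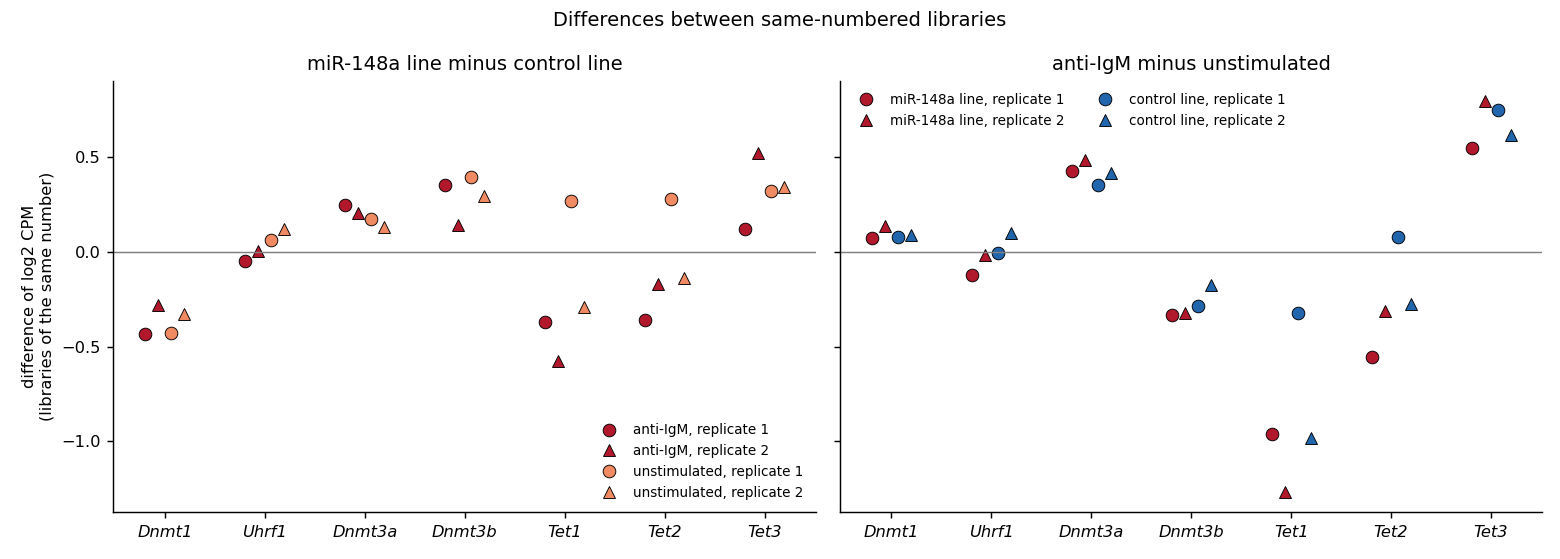
Differences of log2 CPM within same-numbered libraries (circles replicate 1, triangles replicate 2), for the miR-148a line minus the control line and for anti-IgM minus unstimulated, 4 points per member in each. All 4 line differences of Dnmt1 lie below 0, from -0.43 to -0.28, and those of Dnmt3a, Dnmt3b and Tet3 lie above 0.

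The second question was how the members respond to crosslinking of the B cell receptor. The per-library values above are the ones compared here, anti-IgM against unstimulated. Averaged over the lines, 4 of 7 members were called, 2 higher and 2 lower, where 40.9% of all genes were called, 21.0% higher and 19.9% lower. With the block Tet2 was called too, and 55.2% of all genes. With so many genes called, 4 of 7 is not read as a result about the members, and they did not move in 1 direction.

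Dnmt3a rose with anti-IgM. All 4 anti-IgM libraries (162 to 219 CPM) lay above all 4 unstimulated libraries (126 to 156 CPM), as in 17.2% of all genes. The log2 fold change averaged over the lines was 0.43 ± 0.09, a 1.34-fold rise (adjusted p = 0.00438), and the adjusted p stayed between 0.00435 and 0.0251 with each library left out. In the miR-148a line it was 0.46 ± 0.12 (adjusted p = 0.0219), and in the control line 0.39 ± 0.12 (adjusted p = 0.0584, and 0.000863 with the block). The call in the miR-148a line was lost without replicate 1 or 2 of its unstimulated group (0.159 and 0.0618) and without replicate 2 of its anti-IgM group (0.134).

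Tet3 rose 1.63-fold with anti-IgM averaged over the lines, a log2 fold change of 0.70 ± 0.21 (adjusted p = 0.0244). Its anti-IgM libraries ran from 82.5 to 157 CPM and its unstimulated libraries from 49.0 to 90.1 CPM, so the groups overlapped across the lines and replicates. Within each same-numbered pair the anti-IgM library was higher, in 4 of 4 pairs, as in 30.7% of all genes. The call was lost without replicate 1 of unstimulated miR-148a cells (0.0838) or of unstimulated control cells (0.0777), and without replicate 2 of miR-148a cells with anti-IgM (0.0899) or of control cells with anti-IgM (0.0841). DESeq2 gave an adjusted p of 0.0506. In the single lines the log2 fold change was 0.71 ± 0.29 in miR-148a cells (adjusted p = 0.0984, and 3.75e-05 with the block) and 0.69 ± 0.29 in control cells (0.143, and 0.000126 with the block).

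Dnmt3b fell with anti-IgM averaged over the lines, by 0.27 ± 0.09 on the log2 scale (adjusted p = 0.0444). The anti-IgM libraries ran from 21.1 to 28.7 CPM and the unstimulated libraries from 25.8 to 36.0 CPM. Each line's anti-IgM library was lower in 4 of 4 pairs, as in 31.1% of all genes. This call was the least firm of the 4. It remained without replicate 1 of unstimulated control cells (0.0465) or replicate 2 of control cells with anti-IgM (0.0241). It was lost without replicate 1 or 2 of unstimulated miR-148a cells (0.0838 and 0.119), replicate 1 or 2 of miR-148a cells with anti-IgM (0.0913 and 0.0771), replicate 1 of control cells with anti-IgM (0.116) or replicate 2 of unstimulated control cells (0.131). Scaling by library totals gave 0.121 and DESeq2 0.119. In single lines it was called only in the miR-148a line and only with the block (-0.34, adjusted p = 0.0168), and the difference between the lines is tested below. The averaged log2 fold changes of the 2 de novo methyltransferases thus had opposite signs, with the call of Dnmt3b depending on the setting. The 2 genes were not tested against each other.

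Tet1 fell with anti-IgM, to 1.64 and 1.11 CPM in the miR-148a line, against 3.37 and 2.92 CPM unstimulated. In the control line it had 2.18 and 1.74 CPM with anti-IgM, against 2.77 and 3.61 CPM unstimulated. All 4 anti-IgM libraries lay below all 4 unstimulated libraries, as in 17.1% of all genes, at 10 to 20 counts against 38 to 50 counts per library. The log2 fold change averaged over the lines was -0.97 ± 0.25 (adjusted p = 0.0138). The call was lost without replicate 1 of unstimulated miR-148a cells (0.0519), replicate 2 of miR-148a cells with anti-IgM (0.064) or replicate 2 of control cells with anti-IgM (0.0511). In the miR-148a line the log2 fold change was -1.23 ± 0.37 (adjusted p = 0.0339), which was lost without replicate 1 or 2 of its unstimulated group (0.162 and 0.0828), replicate 2 of its anti-IgM group (0.233) or replicate 2 of unstimulated control cells (0.0502). It was also lost with DESeq2 (0.118) and in a fit of only the 2 groups compared (0.0577). In the control line it was -0.72 ± 0.35 and not called (adjusted p = 0.190).

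Tet2 had 90.8 and 132 CPM in miR-148a cells with anti-IgM, against 134 and 163 CPM unstimulated, and 116 and 148.01 CPM in control cells with anti-IgM, against 110.2 and 179 CPM unstimulated. The groups of the miR-148a line did not overlap, as in 32.5% of all genes in this direction, and those of the control line did. The averaged log2 fold change of -0.27 ± 0.18 was not called (adjusted p = 0.260), but was with the block (0.00373). In the miR-148a line the block gave -0.43 (adjusted p = 0.00222) and in the control line -0.11 (0.407).

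The maintenance pair was not called in either line, with or without the block. Dnmt1 had an averaged log2 fold change of 0.10 ± 0.09 (95% interval -0.10 to 0.29, adjusted p = 0.419) and was higher with anti-IgM in 4 of 4 pairs, as were 30.7% of all genes. Uhrf1 had -0.01 ± 0.08 (95% interval -0.18 to 0.17, adjusted p = 0.950). Both intervals end below the averaged log2 fold change estimated for Dnmt3a, 0.43. The interval of Dnmt3a itself starts at 0.23 and overlaps that of Dnmt1, and the genes were not tested against each other.

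**Figure D5:**
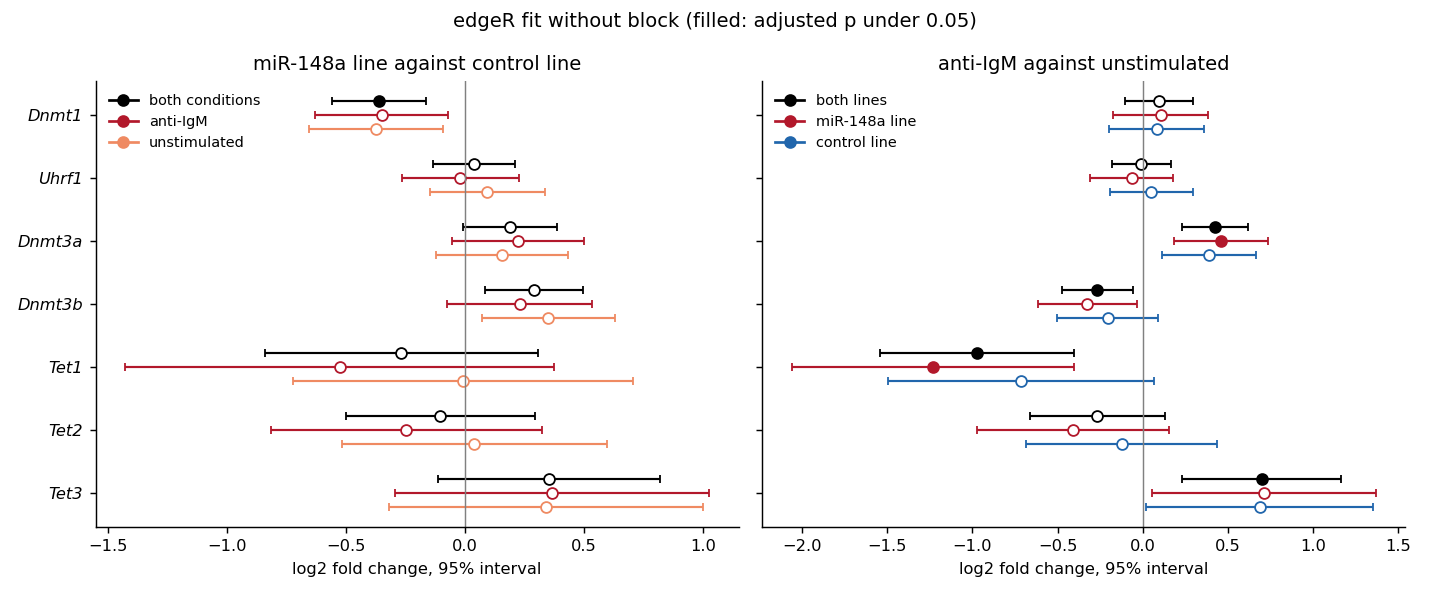
Log2 fold changes of the 7 members with 95% intervals for the comparisons between lines and the responses to anti-IgM, filled where the adjusted p is under 0.05. Dnmt1 stands at -0.36 in the line comparison averaged over conditions, Dnmt3a and Tet3 are above 0 and Dnmt3b and Tet1 below 0 in the averaged response, and the intervals of Uhrf1 include 0 throughout.

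No member was called in the control line alone, where 17.0% of all genes were, and 2 of 7 (Dnmt3a and Tet1) were called in the miR-148a line, where 28.7% of all genes were. With the block the counts were 2 of 7 in the control line (34.8% of all genes) and 5 of 7 in the miR-148a line (46.1%). A larger number of calls in 1 line is no test of a difference between the lines. The interaction, the response of the miR-148a line minus that of the control line, was called for 0 of 7 members and 0% of all genes by edgeR. At an unadjusted p under 0.05 it held 0 members and 484 genes, DESeq2 called 1 gene, and the block 11 genes (0.0974%), no member among them. Its log2 values ran from -0.52 ± 0.51 for Tet1 to 0.07 ± 0.17 for Dnmt3a. For Dnmt1 it was 0.02 ± 0.17 (95% interval -0.37 to 0.42), an interval wide enough to hold a difference as large as the line contrast itself. 

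Partners of the methyltransferases were read from a list of 14 genes, of which 11 were tested. With anti-IgM, averaged over the lines, 1 of the 11 rose and 4 fell (40.9% of all genes were called), with a median log2 fold change of -0.06 against 0.01 over all genes. Cdca7 and Hells encode the 2 parts of a remodelling complex that opens nucleosomes to maintenance methylation. Cdca7 had 102 and 91.8 CPM in miR-148a cells with anti-IgM, against 176 and 159 CPM unstimulated, and 97.3 and 105 CPM in control cells with anti-IgM, against 155 and 149.8 CPM unstimulated, so the groups were apart (-0.69 ± 0.08, adjusted p = 0.000214). Hells fell by 0.57 ± 0.11 (adjusted p = 0.00378), while in the control line alone its adjusted p was 0.102, and 0.000619 with the block. Usp7, a deubiquitinase that binds DNMT1 and UHRF1, fell by 0.43 and Setdb1, a histone H3 lysine 9 methyltransferase, by 0.23. Ehmt2, another such methyltransferase, rose by 0.50 ± 0.07 (adjusted p = 0.000731). With the block 3 rose and 5 fell, where 27.9% of all genes rose and 27.3% fell. Between the lines none of the 11 was called without the block and 1 was lower with it. Of all genes 6.31% were called without the block, and 10.9% were lower with it. The median log2 fold change there was -0.04, against -0.0025 over all genes. Cdca7 and Hells, named by a rule that takes the largest changes of the list, fell on anti-IgM, while Dnmt1 and Uhrf1 were not called. The 2 pairs were not tested against each other.

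Of 8 genes listed as methyl-CpG readers or relatives of them, 2 rose and 1 fell with anti-IgM, with a median of 0.21. Of all genes 40.9% were called there, 21.0% higher and 19.9% lower. Zbtb4, a zinc finger protein that binds methylated DNA, had 32.2 and 44.8 CPM in miR-148a cells with anti-IgM, against 16.9 and 20.9 CPM unstimulated, and 25.9 and 31.8 CPM in control cells with anti-IgM, against 15.7 and 15.3 CPM unstimulated (0.98 ± 0.13, adjusted p = 0.000504). Mbd2 rose by 0.21 and Mbd3, a subunit of the NuRD complex, fell by 0.37 ± 0.09 (adjusted p = 0.0113). With the block 6 of the 8 were higher and 1 was lower, where 27.9% of all genes were higher and 27.3% lower. Between the lines none of the 8 was called without the block, and 1 was higher and 1 lower with it. For all genes the shares were 6.31% called without the block, and 11.3% higher and 10.9% lower with it.

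Of 14 tested TET partners and base excision repair genes, 5 rose and 5 fell with anti-IgM, with a median of 0.03. Over all genes 21.0% rose and 19.9% fell. Those that fell included Apex1, the abasic site endonuclease (-0.56), Lig3 (-0.47), Ung (-0.42), Parp1 (-0.39) and Ogt, a glycosyltransferase that binds TET proteins (-0.18). Neil3, a DNA glycosylase, rose by 0.58 ± 0.11 (adjusted p = 0.0034) and Hmces, which shields abasic sites, by 0.75 ± 0.15 (adjusted p = 0.0038). Between the lines over both conditions only Smug1, a uracil glycosylase, was called, higher by 0.40 (adjusted p = 0.0376), and the block called 3 higher and 1 lower. Of all genes 6.31% were called there, and the block called 11.3% higher and 10.9% lower.

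Of 14 tested genes that supply the methyl donor S-adenosylmethionine and the TET cofactor 2-oxoglutarate, 8 fell and 0 rose with anti-IgM averaged over the lines, where 19.9% of all genes fell and 21.0% rose. With the block 8 were lower and 1 was higher, where 27.3% of all genes were lower and 27.9% higher. Their log2 fold changes had a median of -0.33 against 0.01 over all genes. Mat2a, the enzyme that makes S-adenosylmethionine, had 228 and 209 CPM in miR-148a cells with anti-IgM, against 487 and 451 CPM unstimulated, and 229 and 290.0 CPM in control cells with anti-IgM, against 421 and 463 CPM unstimulated. It fell by 0.93 ± 0.09 on the log2 scale (adjusted p = 0.000117). Shmt1, which feeds one-carbon units, fell by 1.01 ± 0.11. Mthfd2, Shmt2, Mthfd1, Mtrr and Ahcy fell by 0.72, 0.68, 0.66, 0.46 and 0.20. In the single lines 7 fell in the miR-148a line and 6 in the control line, with 0 higher in either. Of all genes 14.0% fell in the miR-148a line and 7.45% in the control line. Between the lines over both conditions 1 was called, Mthfd2, lower by 0.40 (adjusted p = 0.0409), and the block called 6 lower and 1 higher. The share of all genes called there was 6.31%, and the block called 10.9% lower and 11.3% higher.

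Since Dnmt1 and Uhrf1 are expressed mainly in cells that replicate DNA, S phase and G2/M genes were read beside them. Averaged over the lines, 21.0% of all genes rose with anti-IgM and 19.9% fell (27.9% and 27.3% with the block). Of 19 S phase genes, 1 rose and 3 fell with anti-IgM (2 and 6 with the block), the median log2 fold change being -0.06. Mcm2, a helicase subunit, fell by 0.41 and Rrm2, a ribonucleotide reductase subunit, rose by 0.32. Of 11 G2 and M phase genes, 7 rose and 0 fell, with a median of 0.34. Nusap1 rose by 0.71, Aurka by 0.52 and Top2a by 0.38. Between the lines no gene of either list was called without the block. With it 1 S phase gene was higher and 3 were lower, and 1 G2 and M phase gene was higher and 1 lower. Of all genes, 6.31% were called between the lines without the block, and 11.3% were higher and 10.9% lower with it. The summed S phase level was 4060 to 4161 CPM in miR-148a cells with anti-IgM, 4261 to 4370.1 in unstimulated miR-148a cells, 4392 to 4459 in control cells with anti-IgM and 4425 in both unstimulated control libraries. The part of these shifts in the members' values was not tested.

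Among 7 tested genes of a list of 9 other reported miR-148a targets, 2 were lower and 1 was higher in the miR-148a line averaged over conditions. In that comparison 2.93% of all genes tested were called lower and 3.37% higher. Bcl2l11, which encodes the pro-apoptotic protein Bim, had an averaged log2 fold change of -0.55 ± 0.12 (adjusted p = 0.0267). It was -1.02 ± 0.16 with anti-IgM (adjusted p = 0.0207) and -0.09 ± 0.16 in unstimulated cells (adjusted p = 0.920). The difference between these, the interaction, was -0.94 ± 0.23 and not called (adjusted p = 0.9996, and 0.0605 with the block). Tgfbr1, a TGF-beta receptor, was higher by 0.40 (adjusted p = 0.0174). The list's median was 0.04, above 0, against -0.0025 over all genes. Dnmt1 stood at -0.36 beside these, and the size of its difference was not tested against theirs.

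Genes whose pattern over the 8 libraries was most like each member's were named by Pearson's r of log2 CPM among 9762 genes whose mean log2 CPM was 1 or more. Dnmt1 was most like Ppp6r1, a phosphatase 6 regulatory subunit (r = 0.997), Pola1, the catalytic subunit of DNA polymerase alpha (0.992), and Arf3, a small GTPase (0.984). Ppp6r1 had 164 and 210.0 CPM in miR-148a cells with anti-IgM, against 229 and 264 CPM in control cells with anti-IgM, the same arrangement as Dnmt1. For Uhrf1 the 3 were Smarcd1 (0.990), Zfp282 (0.980) and Zbtb37 (0.971). They were Acrbp, Mef2d and Faah for Dnmt3a, Fzd7, Arf6 and Dusp2 for Dnmt3b, Rnf219, Prpf4b and Usp16 for Tet1, Zfp609, Son and Pbrm1 for Tet2, and Ap3d1, Macf1 and Utrn for Tet3, with r between 0.971 and 0.993. Among the members themselves Dnmt3a and Tet3 were alike (r = 0.941), Dnmt3a and Tet1 opposed (-0.910), and Dnmt1 and Dnmt3b had r = -0.562. With 8 libraries in 4 groups these values mostly repeat the group means and the replicate shift, so they describe the libraries only.

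Replicate 2 was above replicate 1 in 4 of 4 groups for 6 of the 7 members. The share of all genes that did so was not counted, so this is not read as a trait of the members. The mean shift was 0.57 on the log2 scale for Tet3 and 0.47 for Tet2, and between 0.14 and 0.19 for Dnmt1, Dnmt3a, Dnmt3b and Uhrf1, while Tet1 was higher in 1 of 4 groups. Over all genes the median shift was 0.00 and the 90th percentile 0.29. The shift of Tet2 exceeded its differences between the lines and between the conditions, and that of Tet3 lay between its line difference and its response. Replicates 1 and 2 carry different prefixes in their labels. The part of the shift in the calls shows in the blocked values above. Dnmt3aos overlaps Dnmt3a by 133 bases and Gm42567 overlaps Tet2 by 43 bases, both on the opposite strand. The strand setting of the counting is unknown, so reads of such pairs may be shared.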

How the data were processed

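The authors deposited 1 table of estimated counts (expected counts, not normalised) per gene symbol, for 8 polyA-selected libraries made with a directional kit, per the labels' protocols. The submitters' processing notes name edgeR, Partek 6.15.0730, TopHat2 2.0.13, Bowtie2, CASAVA 1.8 and cutadapt, and the builds mm10 and GRCm38. Annotation and strand setting: not given in the sources used here.

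Of 24081 rows, 27 date-like names were left out (0.213% to 0.235% of counts). Counts were rounded and tested in R 4.3.3 with edgeR 4.0.16 (filterByExpr, TMM, quasi-likelihood F test, 4 group means over all 8 libraries, Benjamini-Hochberg over 11291 genes, threshold 0.05). Values after ± are standard errors of log2 fold changes. CPM are counts scaled to the TMM-adjusted library total, and 3 counts equal 0.166 to 0.502 CPM, which covers counting error only. The biological coefficient of variation, 11.1%, became 5.98% once the replicate number entered as a block. The numbers pair the libraries: they follow a shared label prefix, 137 or 143, and same-numbered libraries deviated together in all 6 pairs of groups (r across genes 0.495 to 0.569). Replicates differed beyond sampling noise (mean chi-square per gene 9.47 to 13.7).

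Other settings were DESeq2 1.42.0, its size factors, library totals, no filter, only the 2 groups compared, the block, each library left out, and within-number differences. Seed matches came from RefSeq and GENCODE vM21 sequences. The scripts were tested on simulated data. The members and the 7 gene lists, with their markers, were chosen with earlier results of these data known. Up to 3 genes per list, those with the largest changes among called genes in a single line or condition, were named by rule, and other list genes named here were chosen after their values were seen. The 3 genes most like each member were named by Pearson's r. Some genes counted in the lists are not reported here by name.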

Additional observations from a re-analysis of the deposited data

How the results depend on the processing

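No member called without the block changed direction under any setting tried. Paired analysis (the replicate block) called 2 members in the control line response, 5 in the miR-148a line response, 3 between the lines in unstimulated cells, 3 with anti-IgM and 4 over both conditions, against 0, 2, 0, 0 and 1 without it. It called 3929, 5205, 823, 1822, 2513 and 11 of all genes in those 5 comparisons and the interaction, against 1925, 3238, 55, 284, 712 and 0. DESeq2 called 1, 1 and 2 members in the control, miR-148a and averaged responses, where edgeR called 0, 2 and 4. It called 159 genes between the lines unstimulated and 1 in the interaction. Library totals without TMM called 1 member in the control line response and 0 between the lines over both conditions. They split all calls of the response into 1368 higher and 582 lower in the control line, 1976 and 1244 in the miR-148a line, and 2893 and 1676 averaged, against 1084 and 841, 1659 and 1579, and 2369 and 2248 with TMM. Without a filter on low counts, 179 genes were called between the lines unstimulated and 450 with anti-IgM. A fit of only the 2 groups compared called 1 member in the miR-148a line response and 16 genes between the lines with anti-IgM. The causes were not tested.

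With each library left out, with or without the block, the members called numbered 0 to 2 in the control line response, 0 to 5 in the miR-148a line response, 1 to 6 in the averaged response, 0 to 3 between the lines unstimulated, 0 to 2 with anti-IgM and 0 to 4 over both conditions. All genes called numbered 540 to 4426, 1481 to 5236, 0 to 1185, 0 to 2143, 236 to 2954 and 0 to 374 in the control and miR-148a responses, the lines unstimulated, with anti-IgM and over both conditions, and the interaction. An arm left with 1 library is assumed to vary like the other groups.

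None of the values that changed sign was called with all 8 libraries and no block. For Uhrf1 the log2 fold change was -0.0079 in the control line response without a filter, and 0.0045 in the miR-148a line and 0.064 in the averaged response with library totals. With 1 library left out it ranged from -0.040 to 0.13, -0.18 to 0.039 and -0.068 to 0.043 in the control, miR-148a and averaged responses, and from -0.14 to 0.084 and -0.023 to 0.089 between the lines with anti-IgM and over both conditions. Dnmt1 ranged from -0.047 to 0.24 in the miR-148a line response and -0.13 to 0.16 in the interaction. Between the lines unstimulated, Tet1 was 0.012 with the block and 0.00062 with library totals, and ranged from -0.36 to 0.32. Tet2 ranged from -0.27 to 0.42 there, -0.26 to 0.084 over both conditions, -0.44 to 0.26 in the control line response and -0.66 to 0.024 in the interaction. Tet3 between the lines with anti-IgM, which the block called, ranged from -0.11 to 0.70 (0.17 to 0.48 in the blocked fits), and its interaction from -0.45 to 0.36. In the interaction Dnmt3a ranged from -0.043 to 0.19 and Dnmt3b from -0.25 to 0.053. Depth limits Tet1 most, at 10 to 50 counts per library.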
